A study of Mus musculus with 8 samples.

Results

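The gene set described here holds 8 subunits of the transcription factor AP-1 and its closest relatives: Fos, Fosb, Fosl2, Jun, Junb, Jund, Atf3 and Maff. They are 8 of the 19673 genes in the deposited expression table, found there by gene name. They were selected on their normalized read counts in these KO and WT libraries, including the opposite direction of Fos and Fosl2, so every genotype difference of these 8 genes is given as a description, without a test. The tumours, of the mouse mammary cancer line Py8119, were dissociated, red cells were lysed, and RNA was taken from the live cells that sorted as CD45+CD3e+CD8+. The hosts were Mtdh KO mice in the KO group and Mtdh WT mice in the WT group, Mtdh being the gene of metadherin. Each group had 4 biological replicates, called here KO 1 to KO 4 and WT 1 to WT 4. All hosts carried the same tumour line, and the age and sex of the mice and the kind of Mtdh deletion are not given in the sources used here. Mtdh itself was measured at 5118, 4622, 2538 and 3341 normalized reads in KO 1 to KO 4, against 9324, 12745, 6407 and 7974 in WT 1 to WT 4, so the groups did not overlap and the KO mean was 42.8% of the WT mean. Which part of Mtdh is deleted is not given either, so reads from a remaining part of the transcript cannot be told from full-length ones.

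AP-1 is a dimer of proteins with a basic region and a leucine zipper. Fos proteins cannot pair with themselves and bind DNA with a Jun partner, whereas Jun proteins also pair with each other, with ATF proteins and with BATF. The dimers bind the TRE, a site named for its response to phorbol ester, or the related cyclic AMP response element (CRE). In T cells, receptor signals reach AP-1 through MAP kinases and protein kinase C, and AP-1 binds with NFAT at composite sites in cytokine genes such as Il2. Fos, Fosb, Jun, Junb and Atf3 are immediate early genes, induced within minutes by receptor signals, by stress and by tissue dissociation.

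The values are read counts per gene that the authors had scaled between libraries, written here as normalized reads. Depth was estimated at 16400000 to 29600000 reads per library, copied from an estimated 115000 to 629000 distinct cDNA fragments. A single fragment was worth 24.1 to 150 normalized reads, most in KO 2 and least in WT 3. All 8 libraries also held macrophage transcripts, although the gate was for CD8 T cells: the 12 macrophage markers summed to 110756 to 251311 normalized reads in KO and 188434 to 299511 in WT, and the 12 CD8 T cell markers to 20905 to 45476 in KO and 7844 to 26968 in WT. All 12 macrophage markers had a negative log2 fold change (median -0.46) and 11 of 12 CD8 markers a positive one (median 0.74). Dendritic cell markers, positive for 5 of 6 tested (median 1.09), summed to 2269 to 3485 normalized reads in KO, against 985 to 1650 in WT, without overlap. Taken singly, only Ccr7 of those tested had groups that did not overlap, and in KO 3 it alone was at 2244 normalized reads. Zbtb46 had a log2 fold change of -0.72 (SE 1.32). Fibroblast markers, negative for 7 of 8 (median -0.64), summed to 3902 to 22404 in KO, against 8760 to 21216 in WT. The haemoglobin genes that mark red cells summed to at most 1.30 in KO libraries, against 101.2 to 256 in WT libraries. These sums rest on few fragments, since the 101.2 was that of WT 2, where a single fragment was worth 64.6 normalized reads. None of the genes on these 5 marker lists passed after adjustment (limma), and at an unadjusted p below 0.05 there were 3 CD8 and 2 dendritic cell markers higher and 5 macrophage, 2 fibroblast and 1 red cell marker lower. In such bulk RNA, fewer cells of a type and less RNA per cell cannot be told apart. Of the 16120 genes with a mean of at least 10 normalized reads, the median log2 fold change of KO over WT was -0.12.

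RefSeq promoter windows of build GRCm38.p6 were found for all 8 genes, 10 windows in all because Maff has 3 annotated starts. The last 150 bases before the start are printed for Fos and Fosl2, whose levels differed in opposite directions between the genotypes, and for Jun and the second start of Maff, the other genes whose groups did not overlap. Each reads 5′ to 3′ on the gene's own strand, and capitals mark matches to TGACG, TGACNTCA or the TATA box TATAAA.
Fos, plus strand, chr12:85473740-85473889: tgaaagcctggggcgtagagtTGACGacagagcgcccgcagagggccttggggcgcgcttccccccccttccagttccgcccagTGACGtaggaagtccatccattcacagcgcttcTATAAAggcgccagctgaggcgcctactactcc
Fosl2, plus strand, chr5:32136322-32136471: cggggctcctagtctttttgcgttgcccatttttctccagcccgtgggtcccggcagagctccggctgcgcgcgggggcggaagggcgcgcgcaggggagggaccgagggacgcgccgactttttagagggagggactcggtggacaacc
Jun, minus strand, chr4:95052223-95052372: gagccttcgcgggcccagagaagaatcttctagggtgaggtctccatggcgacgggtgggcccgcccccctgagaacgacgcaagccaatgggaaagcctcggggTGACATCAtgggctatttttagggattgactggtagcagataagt
Maff, second start, plus strand, chr15:79347370-79347519: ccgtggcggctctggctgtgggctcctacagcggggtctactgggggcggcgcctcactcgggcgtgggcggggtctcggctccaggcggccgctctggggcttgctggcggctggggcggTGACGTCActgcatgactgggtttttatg

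Motifs were counted in the 250 bases before each start, on both strands except for the TATA box, and positions count back from -1, the base before the start. The Fos window held the CRE core TGACG at -129 and -66 and TATAAA at -33. The Fosl2 window held none of the motifs searched. The Jun window held TGACATCA at -45, an AP-1-like site for which the Jun promoter is known. The second Maff window held a full CRE, TGACGTCA, at -29, which also counts as a TGACG on each strand and as TGACNTCA. TGACG was also found for Fosb at -60, for Junb at -106 and for Atf3 at -7 on the other strand, and for the third Maff start at -122 on the other strand, where TGACATCA stood at -45. No window of the 8 genes held the TRE, TGANTCA, or the CArG box, the site of serum response factor. Sites farther than 250 bases before a start were not searched, so this does not mean that a promoter lacks them. Among all 32851 RefSeq windows, 17.8% held TGACG, 7.49% TGACNTCA, 1.55% TGACGTCA, 7.59% TATAAA, 6.75% TGANTCA and 1.47% a CArG box. The Fosl2 window ends 299 bases and the Jund window 1210 bases from the nearest GENCODE start of the gene, so these may not be the starts used in these cells.

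Among the Fos genes, Fosl2 was higher in KO hosts with no overlap of the groups, and Fos had a lower mean with an overlap of 1 library. Fosl2 (ENSMUSG00000029135, chromosome 5, 32293145 to 32315186 of mm39) encodes Fra-2, a Fos protein without the strong activation domain of c-Fos. It was measured at 39088, 53090, 31622 and 40986 normalized reads in KO 1 to KO 4, against 12564, 20121, 11867 and 22839 in WT 1 to WT 4. Every KO library lay above every WT library, the nearest being KO 3 and WT 4. The KO mean was 41197 ± 8900 and the WT mean 16848 ± 5470 (SD, 4 libraries each), a log2 fold change of 1.32 (SE 0.24), or 2.50-fold.

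Fos (ENSMUSG00000021250, chromosome 12, 85520664 to 85524047) encodes c-Fos, the prototype of the family. Its values were 20274, 20198, 19717 and 25976 normalized reads in KO 1 to KO 4, against 36545, 28018, 36511 and 25489 in WT 1 to WT 4. KO 4 lay just above WT 4, and apart from this pair the KO values were the lower ones. The KO mean was 21541 ± 2967 and the WT mean 31640 ± 5737 (SD, 4 libraries each), with a log2 fold change of -0.55 (SE 0.20), so the KO level was 68.1% of the WT level.

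Fosb (ENSMUSG00000003545, chromosome 7, 19036621 to 19043976), which encodes a full-length and a truncated, longer-lived protein, had the highest normalized read count of the 8 genes. It was at 45422, 59028, 30873 and 45388 in KO 1 to KO 4, against 35114, 45817, 29341 and 32434 in WT 1 to WT 4. The ranges overlapped for most of their length, and the log2 fold change was 0.32 (SE 0.23).

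The scaling between libraries cancels in the ratio of a pair of genes within a library. The log2 ratio of Fosl2 over Fos was 0.95, 1.39, 0.68 and 0.66 in KO 1 to KO 4, against -1.54, -0.48, -1.62 and -0.16 in WT 1 to WT 4. Fosl2 thus had more reads than Fos in all 4 KO libraries and fewer in all 4 WT libraries. Gene length does not cancel in this ratio, and the annotated exons span 9680 bases for Fosl2 and 2352 for Fos. Per kilobase of exon, Fos lay above Fosl2 in every library, with KO means of 9159 and 4256. The mean difference between KO and WT in the log2 ratio of Fosl2 over Fos was 1.87, and it lay between 1.65 and 2.13 when a single library was left out. The log2 ratio of Fosl2 over Fosb likewise did not overlap, with -0.22 to 0.03 in KO libraries, against -1.48 to -0.51 in WT libraries.

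**Figure D1:**
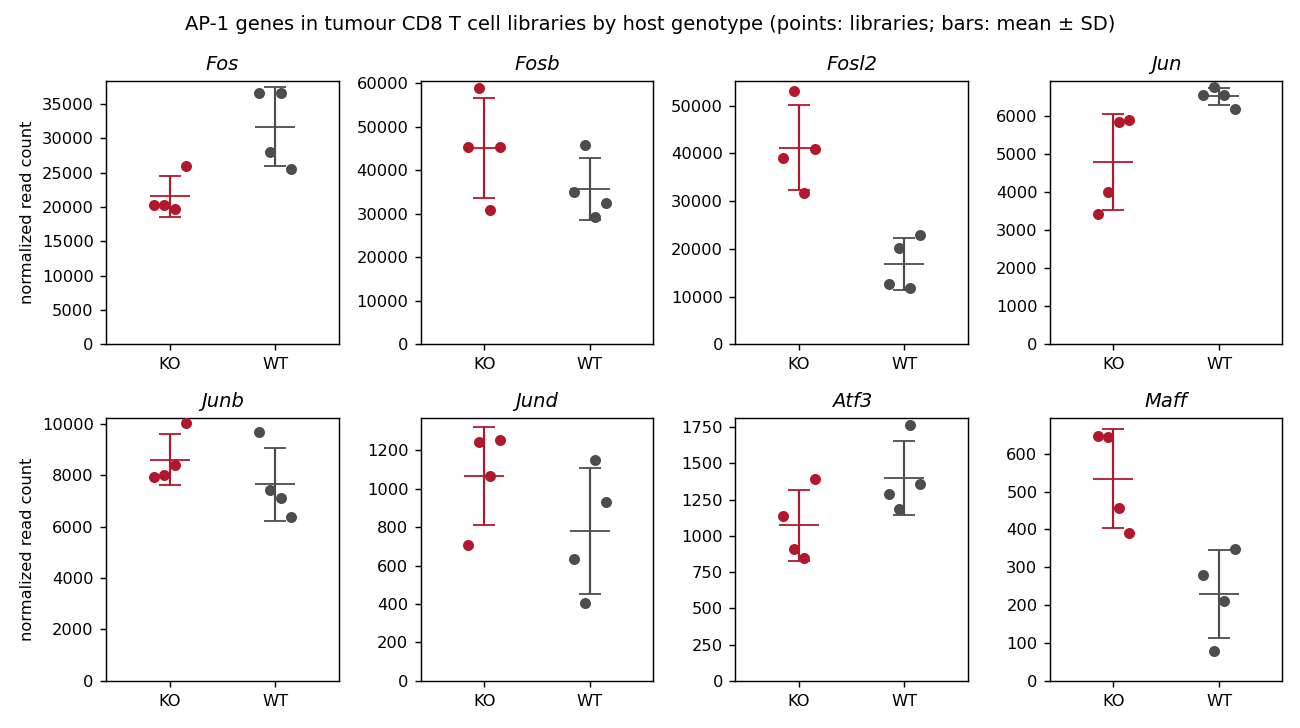
Normalized read count of each AP-1 gene (linear axis from 0) in the 4 KO and 4 WT libraries; points are libraries and bars are the mean ± SD. Fosl2 and Maff are higher in every KO library than in any WT library, Jun is lower in every KO library, and the groups of the other 5 genes overlap.

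Among the Jun genes, Jun was lower in KO hosts and Junb and Jund overlapped between the genotypes. Jun (ENSMUSG00000052684, chromosome 4, 94937271 to 94940459) encodes c-Jun, the strongest activator of the Jun proteins. It was measured at 3437, 3996, 5838 and 5912 normalized reads in KO 1 to KO 4, against 6563, 6762, 6560 and 6203 in WT 1 to WT 4. All KO values were lower than all WT values, although KO 3 and KO 4 came close to WT 4. The WT libraries were close together, with a coefficient of variation of 3.56%, whereas it was 26.4% in KO. The log2 fold change was -0.48 (SE 0.21), with a KO mean of 4796 ± 1267 and a WT mean of 6522 ± 232 (SD, 4 libraries each). The lowest values stood in KO 1 and KO 2, the libraries with the fewest estimated fragments, where Jun rested on an estimated 44.0 and 26.7 fragments. The log2 fold change was -0.34 without KO 1 and -0.41 without KO 2.

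Junb (ENSMUSG00000052837, chromosome 8, 85701113 to 85705347), a weaker activator that is also a partner of BATF in T cells, had the steadiest KO level of the 8 genes. Its values were 7928, 8016, 8414 and 10043 normalized reads in KO 1 to KO 4, against 9672, 7432, 7108 and 6383 in WT 1 to WT 4. Library WT 1 lay among the KO values, and the log2 fold change was 0.18 (SE 0.20).

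Jund (ENSMUSG00000071076, chromosome 8, 71151599 to 71153265), the Jun protein known for steady expression in resting cells, was at 705, 1244, 1064 and 1254 normalized reads in KO 1 to KO 4, against 636, 405, 1147 and 932 in WT 1 to WT 4. The ranges overlapped, and the log2 fold change of 0.52 had an SE of 0.36. These values rested on an estimated 6.27 to 47.6 fragments per library.

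Atf3 and Maff stand outside the Fos and Jun families proper and were the least abundant of the set along with Jund. Atf3 (ENSMUSG00000026628, chromosome 1, 190902493 to 190950236), a stress-induced factor that pairs with Jun proteins, was at 1136, 913, 847 and 1393 normalized reads in KO 1 to KO 4, against 1290, 1186, 1767 and 1355 in WT 1 to WT 4. Its log2 fold change was -0.40 (SE 0.28), and KO 4 lay above 3 of the WT libraries.

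Maff (ENSMUSG00000042622, chromosome 15, 79230821 to 79243276) encodes a small Maf protein, which has no activation domain and pairs with factors such as Nfe2l2 and Bach1. Its values were 648, 644, 456 and 391 normalized reads in KO 1 to KO 4, against 281, 78.5, 211 and 348 in WT 1 to WT 4. The groups did not overlap, with KO 4 just above WT 4. The log2 fold change was 1.37 (SE 0.55), or 0.93 without WT 2, in which Maff rested on an estimated 1.22 fragments. Across the 8 libraries the estimate was 1.22 to 11.2 fragments, so the size of this difference rests on few molecules.

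In all, the log2 fold change was positive for 5 of the 8 genes and negative for 3, with a median of 0.25. Groups did not overlap for 3 genes, Fosl2 and Maff higher and Jun lower in KO, where 4.11% of all tested genes had groups that did not overlap (2.02% higher and 2.09% lower in KO). Since the genes were picked with these differences known, nothing is read from their counts against that background.

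**Figure D2:**
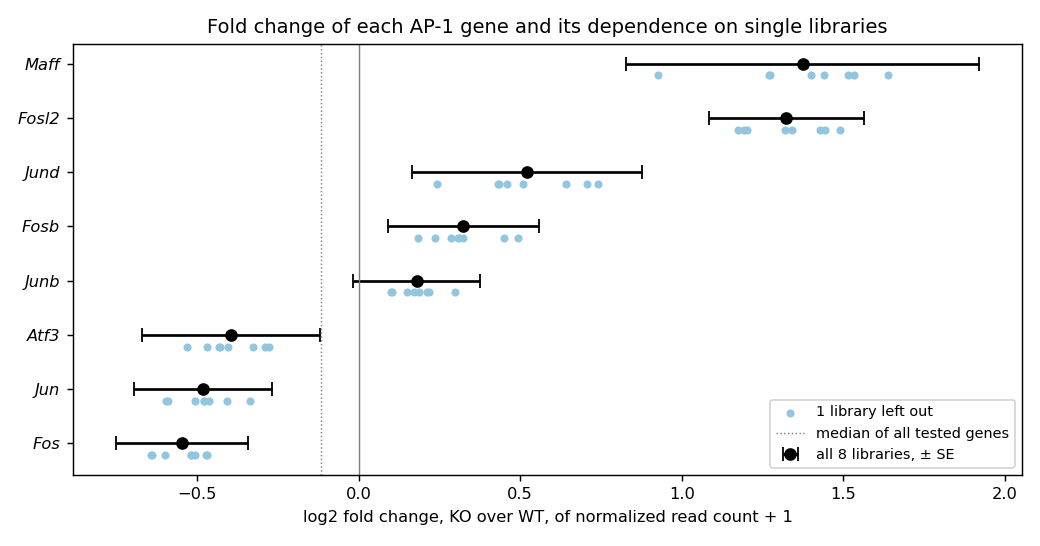
Log2 fold change of KO over WT for each AP-1 gene, as the estimate from all 8 libraries with its SE (black) and the 8 estimates that leave out 1 library each (blue). The estimates that leave out a library stay on one side of 0 for every gene, from 0.93 to 1.64 for Maff and from 0.10 to 0.30 for Junb.

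Levels of different genes were compared per kilobase of annotated exon, over the union of the exons of each gene in GENCODE M21. In KO the order of mean level was Fos (9159 normalized reads per kb), Fosb (7237), Fosl2 (4256), Junb (3738), Jun (1504), Jund (639), Atf3 (498) and Maff (206). In WT it was Fos (13453), Fosb (5715), Junb (3324), Jun (2045), Fosl2 (1740), Atf3 (650), Jund (468) and Maff (88.5). Fosl2 therefore stood in place 3 in KO and in place 5 in WT. Neighbours whose ranges over 4 libraries overlapped were Fos with Fosb, Fosb with Fosl2, Fosl2 with Junb, and Jund with Atf3 in KO, and Jun with Fosl2 and Atf3 with Jund in WT. Per kilobase of the longest transcript in place of the exon union, Fosb came before Fos in KO (11946 against 10219 per kb) and Fosl2 before Jun in WT (2577 against 2045 per kb), so those orders depend on the transcript length assumed.

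On this per-length scale the makeup of both families differed between the genotypes while the ranges of their sums overlapped. The Fos family (Fos, Fosb, Fosl1 and Fosl2) summed to 20881 ± 3169 normalized reads per kb in KO, against 21029 ± 1744 in WT (SD, 4 libraries each). Fosl2 made up 20.1%, 23.0%, 19.5% and 18.5% of that sum in KO 1 to KO 4, against 5.75%, 9.71%, 5.68% and 12.7% in WT 1 to WT 4. The share of Fos was 36.1% to 49.97% in KO and 55.6% to 71.9% in WT. Neither share overlapped between the groups.

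Fosb took 34.3 ± 4.57% of the Fos sum in KO, against 27.2 ± 5.33% in WT (SD, 4 libraries each), with overlapping ranges. Fosl1, which encodes Fra-1 and is not among the 8 genes, took 0.587% to 1.42% in KO and 0.406% to 0.758% in WT. The Jun family summed to 5881 ± 872 normalized reads per kb in KO and 5837 ± 584 in WT. Within it Jun took 21.8% to 29.9% in KO and 31.0% to 37.9% in WT, without overlap. Junb took 59.7% to 69.7% in KO and 52.6% to 63.3% in WT, and Jund 8.54% to 13.6% in KO and 4.34% to 11.8% in WT, both with overlap. With the longest transcript as the length, the mean share of Fosl2 was 21.9% in KO and 9.64% in WT, and that of Jun 21.6% in KO and 30.6% in WT.

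**Figure D3:**
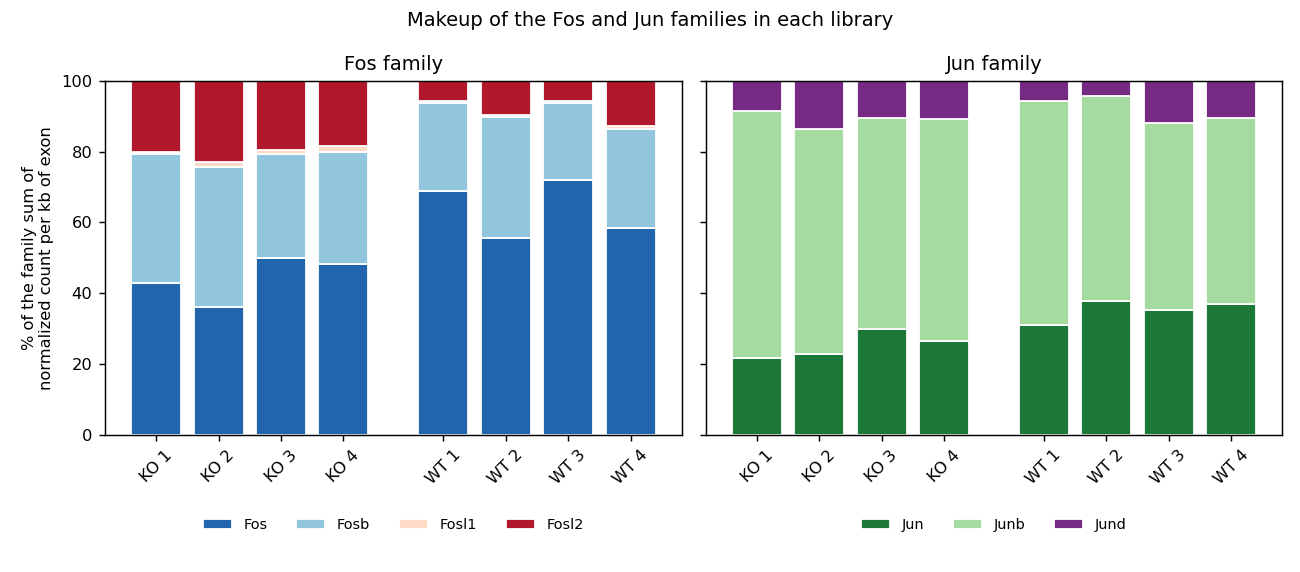
Share of each gene in its family's sum of normalized reads per kb of exon, in percent, with 1 stacked bar per library, KO left and WT right. The top red block, Fosl2, covers 18.5% to 23.0% of the Fos family in KO libraries and 5.68% to 12.7% in WT libraries, and the bottom block of the Jun family, Jun, covers 21.8% to 29.9% in KO and 31.0% to 37.9% in WT.

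Whether the 8 genes moved together from library to library was examined apart from the genotype, with each gene's group mean removed from its log2 value. Over the 28 pairs of genes, the correlation across the 8 libraries ranged from -0.65 (Fos with Fosl2) to 0.75 (Fos with Junb), 13 positive and 15 negative. None passed after Benjamini-Hochberg adjustment over the 28 pairs, in an exact two-sided permutation test of libraries within groups and 1 had an unadjusted p below 0.05. That pair was Jun with Maff (Pearson r = -0.44, exact permutation p = 0.0243, adjusted p = 0.510; Spearman rho = -0.67, p = 0.0347, adjusted p = 0.486; r = -0.39 without the libraries farthest out in Jun, KO 1 and KO 4). Fos and Fosl2, the pair that differed in opposite directions between genotypes, had r = -0.65 within groups (exact permutation p = 0.184, adjusted p = 0.859; rho = -0.60, p = 0.219, adjusted p = 0.832; r = -0.76 without KO 4 and WT 1). Fos with Junb had r = 0.75 (exact permutation p = 0.0660, adjusted p = 0.510; rho = 0.57, p = 0.203, adjusted p = 0.832) and 0.41 without KO 4 and WT 1. With 8 libraries, covariation of this size could not be told from none.

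The same test was run between each gene and 3 indices of a library, the mean log2 value of the CD8 T cell markers, that of the macrophage markers and the log2 number of fragments, 24 pairs in all. In WT 2 the CD8 markers Cd3d, Cd2 and Cd247 were at 1.89, 2.84 and 7.15 normalized reads, where a single fragment was worth 64.6. The CD8 index thus also depends on the number of fragments and is not a separate measure from it. None passed after adjustment over the 24 pairs (lowest adjusted p = 0.302, exact permutation test), and 2 had an unadjusted p below 0.05. Fos went with the macrophage markers (r = 0.72, exact permutation p = 0.0347, adjusted p = 0.302; rho = 0.76, p = 0.0365, adjusted p = 0.438; r = 0.45 without KO 4 and WT 1). Jund went with the CD8 markers (r = 0.84, exact permutation p = 0.0260, adjusted p = 0.302; rho = 0.76, p = 0.0712, adjusted p = 0.569), a relation that rested on KO 1 and WT 2, since r was 0.11 without them. Fosl2 had r = -0.32 with the CD8 markers, -0.42 with the macrophage markers and -0.42 with the fragments, with exact permutation p from 0.264 to 0.630 and adjusted p from 0.576 to 0.890. Fosb had the lowest r with the fragments (-0.78, exact permutation p = 0.0503, adjusted p = 0.302; rho = -0.69, p = 0.0990, adjusted p = 0.594; r = -0.72 without KO 2 and KO 3). Fosb also went against the CD8 markers (r = -0.72, exact permutation p = 0.0503, adjusted p = 0.302; rho = -0.83, p = 0.0174, adjusted p = 0.417; r = -0.86 without KO 2 and KO 3), and that rho had the smallest p of the 24. The part of cell makeup in the genotype differences of the 8 genes was not tested beyond these values.

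**Figure D4:**
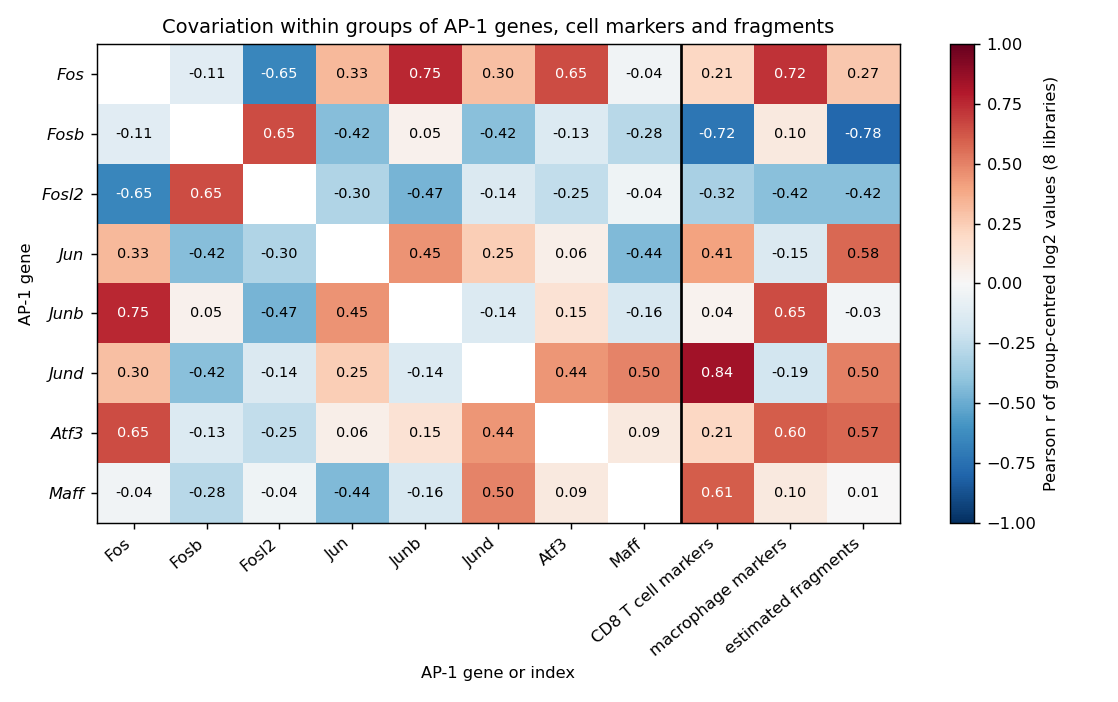
Pearson correlation across 8 libraries of log2 values with the group means removed, for pairs of AP-1 genes (left of the line) and of AP-1 genes with 3 indices of the library (right of it). Values run from -0.78 (Fosb with fragments) to 0.84 (Jund with CD8 markers), and no pair passed after adjustment.

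Over all 8 libraries, with the genotype difference kept in, the genes most like Fosl2 and Fos were sought among 3389 named genes with a mean of at least 1000 normalized reads. For Fosl2 these were Rel, which encodes the NF-kappaB subunit c-Rel (r = 0.98, rho = 0.95), Ets2, an ETS transcription factor (r = 0.97, rho = 0.95), and Birc3, an inhibitor of apoptosis and NF-kappaB target (r = 0.97, rho = 0.95). Rel was at 11039, 15615, 7273 and 8073 normalized reads in KO 1 to KO 4, against 2970, 5478, 2981 and 5961 in WT 1 to WT 4, and like Fosl2 it was highest in KO 2 and did not overlap. For Fos they were Ubfd1, a ubiquitin domain protein (r = 0.93, rho = 0.90), Fcrls, a macrophage and microglia gene (r = 0.90, rho = 0.81), and C1qa, a complement subunit made by macrophages (r = 0.89, rho = 0.95). C1qa was at 1936, 1443, 1474 and 2564 in KO 1 to KO 4, against 3018, 2231, 2622 and 1959 in WT 1 to WT 4, and as for Fos, KO 4 was the highest KO library and WT 4 the lowest WT one. These correlations are the highest of a search over 8 libraries that share the genotype difference, and carry no p.

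The genes around AP-1 were followed as 7 lists of known partners, inputs and targets, in the limma fit of all 16120 genes, in which 0.236% of genes passed at an adjusted p below 0.05, 0.211% as higher in KO and 0.0248% as lower. Among 19 tested bZIP partners of AP-1, none passed, with 3 genes higher and 1 lower at an unadjusted p below 0.05, where 6.7% of all genes were past it, 3.21% higher and 3.49% lower. The nearest were Crem, a cyclic AMP responsive factor, at a log2 fold change of 1.34 ± 0.31 (SE; adjusted p = 0.0922, limma), and Maf (c-Maf), at -0.87 (SE 0.26, limma adjusted p = 0.341). Crem was at 7353, 2552, 4295 and 5317 normalized reads in KO 1 to KO 4, against 1253, 2108, 1369 and 2852 in WT 1 to WT 4, so that KO 2 lay below WT 4. Maf, the most abundant of the list, did not overlap, with 3127 to 8754 in KO libraries, against 9906 to 12700 in WT libraries. Batf, the Jun partner best known from T cells, was listed at 0 in 6 libraries, at 0.789 in KO 4 and at 35.5 in WT 3, and was too low to be tested.

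Of the 24 genes that carry receptor and MAP kinase signals to AP-1, none passed, 2 were higher and 0 lower at an unadjusted p below 0.05, and the median was 0.27. Map3k1, a kinase above JNK, was at 0.51 on the log2 scale (SE 0.21, limma adjusted p = 0.727), Prkcq (protein kinase C theta) at 1.02 (SE 0.47, adjusted p = 0.732), and Nras, the most abundant, at -0.10 (SE 0.21). The list around serum response factor, a driver of Fos, holds 11 genes, among them MEF2 factors and the kinases Rps6ka3 and Rps6ka5. Its median was 0.0031, with none past the threshold or an unadjusted p of 0.05. Srf itself was at 0.84 (SE 0.75, limma adjusted p = 0.831). Mef2c was at -0.50 (SE 0.26, limma adjusted p = 0.767), Rps6ka5 at -0.43 (SE 0.35, adjusted p = 0.805) and Mef2a, the most abundant, at -0.16 (SE 0.22).

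The 24 other immediate early and dissociation-responsive genes were at a median of 0.05 (log2 fold change), with none past the threshold and 2 higher and 2 lower at an unadjusted p below 0.05. Ccn1 was at -0.94 (SE 0.28, limma adjusted p = 0.343), with 634 to 1039 normalized reads in KO and 1206 to 1953 in WT. Dusp2, a MAP kinase phosphatase, was at 1.19 (SE 0.44, limma adjusted p = 0.630), and Klf6, the most abundant, at 0.20 (SE 0.24). The summed level of the list was 85727 to 108837 normalized reads in KO and 84585 to 111735 in WT, so the ranges overlapped almost wholly.

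The 10 partners at composite AP-1 sites had the highest list median, 0.52, with none past the threshold and 4 higher and 0 lower at an unadjusted p below 0.05. Rel was at 1.28 on the log2 scale (SE 0.27, limma adjusted p = 0.0527) and Irf4, the partner of BATF and Jun proteins, at 1.83 (SE 0.48, adjusted p = 0.201). Irf4 was at 1674 to 2634 normalized reads in KO libraries, against 143 to 1538 in WT libraries, without overlap. The lowest value was that of WT 1, where a single fragment was worth 61.1 normalized reads. Ets1, the most abundant, was at 0.75 (SE 0.30, limma adjusted p = 0.679). The summed level of these partners was 44851 to 59907 normalized reads in KO and 31238 to 42184 in WT, without overlap. The summed dendritic cell markers also stood higher in every KO library, as given above. Of those tested, only Ccr7 had groups that did not overlap, with 668 to 2244 normalized reads in KO, against 261 to 615 in WT. In KO 2, Flt3 and Clec9a were at 0 and Zbtb46 at 1.10, while Itgax was at 1092 and Xcr1 at 425. The CD8 T cell markers were likewise positive for 11 of 12, with a median of 0.74. The part of dendritic cells or of CD8 T cells in the levels of these partners was not tested. Among 23 tested AP-1 target genes 1 passed, Il2ra, an IL-2 receptor subunit, at 3.57 on the log2 scale (SE 0.62, limma adjusted p = 0.0127). This call ended without KO 1 (adjusted p = 0.0736) or KO 4 (adjusted p = 0.0922). Its values were 1282, 793, 762.4 and 816 normalized reads in KO 1 to KO 4, against 123, 101.2, 24.6 and 97.8 in WT 1 to WT 4. Gzmb (granzyme B) was at 2.41 (SE 0.58, limma adjusted p = 0.116), and Vegfa, the most abundant, at 0.69 (SE 0.28, adjusted p = 0.679). In WT 2 Gzmb was at 49.2 normalized reads, where a single fragment was worth 64.6. The target list had 5 genes higher and 1 lower at an unadjusted p below 0.05 and a median of 0.26.

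The 13 genes of Fos and Jun turnover and repression had a median of -0.16, none past the threshold and 0 higher and 1 lower at an unadjusted p below 0.05. That gene was Ddb1, part of the ubiquitin ligase that takes up c-Jun through Det1 and Cop1, at -0.47 (SE 0.20, limma adjusted p = 0.730), with 2965 to 3683 normalized reads in KO and 3834 to 5571 in WT, which did not overlap. Zfp36l1, an mRNA decay factor and the most abundant of the list, was at -0.16 (SE 0.21).

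**Figure D5:**
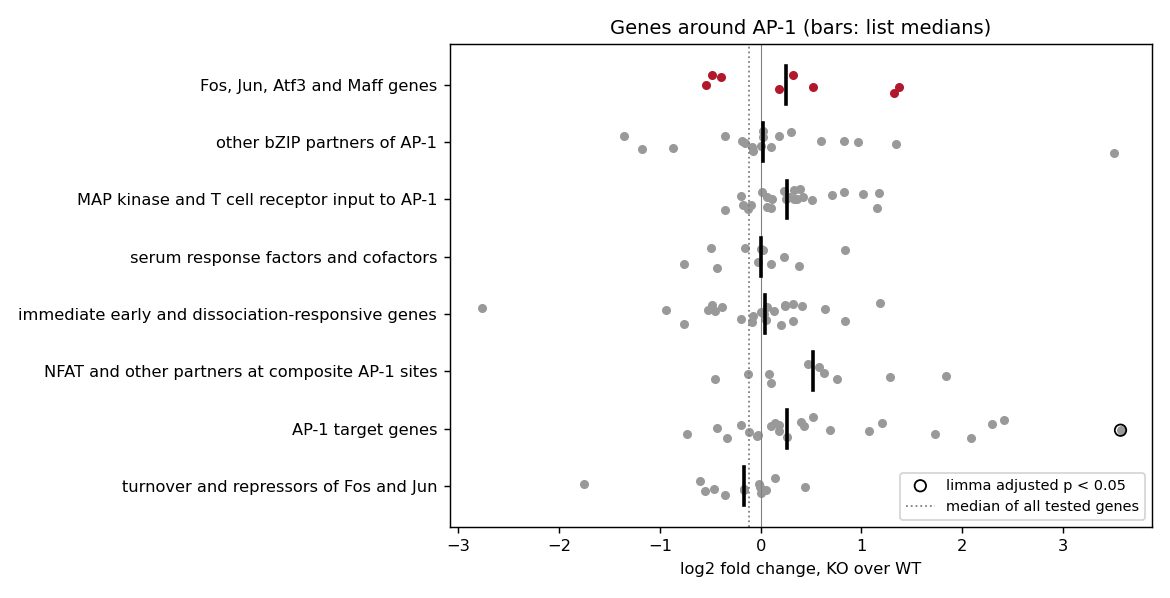
Log2 fold change of KO over WT for the 8 AP-1 genes (red) and the tested genes of the 7 lists (grey), with the list median as a bar and the median of all tested genes, -0.12, dotted. The circle marks Il2ra, the 1 gene of the 7 lists past limma's threshold (the 8 AP-1 genes carry no such mark), and list medians lie between -0.16 and 0.52.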

How the data were processed

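The deposited table gives a signal per gene and library: gene-level read counts scaled by the authors with DESeq2 size factors, going by the name of the deposited table. Partek, DESeq2, STAR 2.7.8a and build mm39 are listed in the submitters' processing notes with no role, and strand is not given in the sources used here. In each library low values lay on multiples of a step, but only 81.4% to 87.8% of values up to 500 reads were whole within 0.02 reads, so no count model was run. Depth is each column's sum divided by its step. Distinct fragments were estimated by matching the share of genes under 3 reads, among those averaging 20 to 500 elsewhere, to Poisson sampling. Intervals for counting error are not given, since reads copied from a fragment are not independent.

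Values were used as log2(value + 1). The 16120 genes with a mean of at least 10 entered a linear model of KO against WT (limma 3.58.1, R 4.3.3, eBayes with trend), two-sided, adjusted by Benjamini-Hochberg over all of them, with a threshold of 0.05. Fold changes are on this scale, and means are of normalized reads. The fit and the permutation test were tested on simulated data. There the fit recovered 46% of genes given a log2 change of 1, 86% at 2 and 100% at 3. Of its 150 calls, 11 were false. A gene that did not pass may therefore still differ. Of the listed gene identifiers, 19544 were in the reference annotation. Coordinates are the table's on mm39, with 1 taken from the listed stop, and exon lengths are from GENCODE M21. The 8 genes, the lists and the tests were chosen with earlier results of these data known.

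Genes named are the 8 AP-1 genes, Mtdh, from each list every gene past the threshold or, where fewer than 2 passed, the 2 with the smallest p, the most abundant of each list, and the 3 most like Fos and Fosl2. Of these, 1 gene that this rule names is not reported here. Batf, Fosl1 and the genes named only in passing were added after values were seen. Alternatives covered the pseudocount, the minimum mean, 3 other scalings, a replicate block, sample weights, each library left out in turn, Spearman's rho and, added after seeing the data, the longest transcript as the length, and single libraries left out for shares and the Fosl2 over Fos ratio.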

Additional observations from a re-analysis of the deposited data

Results flagged for a closer look

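Among 34 named genes, 68 groups of 4 libraries were examined for a library far from the other 3, and 4 stood out by Dixon's criterion, which chance meets in about 1 of 20 groups. Fos was at 25976 normalized reads in KO 4, apart from 20274 in the next KO library. Gzmb was at 2516 in KO 3, with the next KO library at 1276. Il2ra was at 1282 in KO 1, with the next at 816. Nras was at 6764 in WT 1, with the next at 6226.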

How the results depend on the processing

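The log2 fold change of each of the 8 AP-1 genes kept its sign under all 16 alternatives. Its moves were also smaller than the spread between libraries, but for most alternatives this could not have come out otherwise. Leaving out 1 of 4 libraries cannot move a difference of means by that spread. The minimum mean and the replicate block leave a fold change as it is. The log2 fold change ranged from 1.17 to 1.49 for Fosl2 and from -0.64 to -0.47 for Fos. The differences in family shares and in the ratio of Fosl2 over Fos moved by less than the spread under all 9 of theirs. For those that leave out a library, this too was fixed in advance. Counts of called genes moved more. Of all genes, 38 passed, against 63 with a pseudocount of 10, 15 with a minimum mean of 50, 112 with sample weights and 7 to 70 when a library was left out (23 without KO 1, 24 without KO 2, 7 without KO 4, 11 without WT 1, 24 without WT 2, 22 without WT 3 and 70 without WT 4). Of the list genes, 1 passed, against 4 with a pseudocount of 10, 2 without a minimum mean, 2 with quantile normalization, 6 with sample weights and 0 to 4 when a library was left out (0 without KO 1 or KO 4, 3 without KO 2, 2 without KO 3 and 4 without WT 4). The cause was not tested. With the replicate number as a block, 0 genes passed in limma, 0 of them list genes, with 1101 genes at an unadjusted p below 0.05, against 1080 without the block. Whether the numbers pair the libraries is not given. Same-numbered libraries had deviations correlated at 0.016 to 0.076, under the 0.1 set for pairing, and 1 of 8 libraries correlated best with its own number. Correlations this small do not settle the question, and the main fit has no block. No pair of AP-1 genes, or of an AP-1 gene and an index, passed under any of the 11 alternatives. Maff, Jund and Atf3, and Il2ra in WT, rest on few fragments, which limits their precision.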
